A study of Mus musculus with 6 samples.

Results

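The 10 genes that encode the constant regions of mouse immunoglobulin heavy and light chains were followed in RNA from heart immune cells. They were taken by name (Ighm, Ighd, Ighg1, Ighg2b, Ighg2c, Ighg3, Igha, Igkc, Iglc1 and Iglc2), and all 10 were found among the 57010 genes of the deposited count table. All 10 also passed the filter on low counts. The mice carried the genotype given as Ova DTG, in which ovalbumin is restricted to the heart, and all had received ovalbumin-specific CD8 T cells, called OTI cells. In 3 libraries the mice had also been given immune checkpoint inhibitors (ICI), 200 µg of antibody to CTLA-4 and 200 µg of antibody to PD-1, and in the other 3 an isotype control antibody. The age, sex and number of mice behind a library, the dose of isotype antibody and the promoter behind the ovalbumin gene were not in the sources used here. Cells were sorted as positive for CD45, the antigen of all leukocytes, and negative for CD90.2, an antigen of T cells, and B cells fall inside that gate.

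Groups are called here by their labels, on which every direction below rests. Total counts ran from 21528274 to 30736316 per library. Ptprc, which encodes CD45, stood at 949 to 1423 CPM (the count scaled to the library total) in all 6 libraries. Thy1, which encodes CD90, had at most 2 counts in any library. Macrophage transcripts made up the largest of the marker lists, with a summed level of 23297 to 27053 CPM (ICI) and 18827 to 19698 CPM (isotype). Replicate 3 of each group held 2786 (ICI) and 1844 (isotype) counts of Xist, against at most 12 in the other libraries, and at most 130 counts of 4 Y-linked genes, against at least 3620. Values without replicate 3 are therefore given where they matter.

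An antibody joins a pair of heavy chains to a pair of light chains, and the constant region of the heavy chain sets its class. A resting B cell makes the IgM and IgD heavy chains (Ighm and Ighd) from 1 long transcript by alternative processing, and carries both classes on its surface. After activation a B cell can replace this part of the locus by recombination, the class switch, and then makes IgG (Ighg1, Ighg2b, Ighg2c or Ighg3), IgE or IgA (Igha) instead. The light chain is either kappa (Igkc) or lambda (Iglc1, Iglc2 and Iglc3), and kappa predominates in mice. Plasma cells, the secreting end stage, hold far more immunoglobulin RNA per cell than resting B cells.

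Some of these genes resemble each other enough for reads to be hard to place, so the sequences of the closest pairs are shown first. They were read from the GENCODE M21 transcripts of build GRCm38, an older build than the GRCm39 named in the submitters' processing notes, so no coordinates are given. The lambda genes lie on chromosome 16 and the gamma genes on chromosome 12, all on the minus strand. The last 150 coding bases of the lambda genes follow, with bases that differ from Iglc2 in capitals.
Iglc2: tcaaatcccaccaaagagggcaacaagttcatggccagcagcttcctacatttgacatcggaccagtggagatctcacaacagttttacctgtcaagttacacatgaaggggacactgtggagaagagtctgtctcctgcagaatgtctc
Iglc3: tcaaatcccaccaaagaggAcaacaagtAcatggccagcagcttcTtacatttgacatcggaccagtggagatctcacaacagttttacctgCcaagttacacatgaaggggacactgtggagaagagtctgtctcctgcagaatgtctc
Iglc1: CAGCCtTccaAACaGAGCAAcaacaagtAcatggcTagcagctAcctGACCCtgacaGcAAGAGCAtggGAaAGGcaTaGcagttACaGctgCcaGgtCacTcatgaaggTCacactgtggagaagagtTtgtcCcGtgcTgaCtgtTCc
Iglc3 differed from Iglc2 at 4 of these 150 bases and Iglc1 at 54. Over the aligned coding sequence, Iglc2 and Iglc3 were 96.5% identical and Iglc1 and Iglc2 74.8%. Counts of Iglc2 can therefore include reads of Iglc3 and the reverse, and 7.65% of the 50-base words in Iglc2 transcripts also occurred in another gene. The first 150 coding bases of the closest gamma pair follow, with bases of Ighg2c that differ from Ighg2b in capitals, because these genes moved apart in the counts.
Ighg2b: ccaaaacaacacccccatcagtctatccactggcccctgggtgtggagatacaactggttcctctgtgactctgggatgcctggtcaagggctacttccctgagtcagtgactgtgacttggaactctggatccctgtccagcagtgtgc
Ighg2c: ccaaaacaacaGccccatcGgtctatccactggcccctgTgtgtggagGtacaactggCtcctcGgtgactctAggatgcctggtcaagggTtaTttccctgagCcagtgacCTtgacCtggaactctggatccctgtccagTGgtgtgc
These stretches differed at 15 bases, and the whole coding sequences were 87.8% identical. Only 5.49% of the 50-base words of Ighg2c occurred in another gene, all of them in Ighg2b, so most reads of this length could be told apart. Ighm, Ighd, Igha, Igkc and Iglc1 shared no 50-base word with another annotated transcript.

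Immunoglobulin constant transcripts were more abundant in every library labelled ICI. Their sum was 796, 811 and 1445 CPM in ICI replicates 1, 2 and 3 and 80.4, 67.2 and 108 CPM in isotype replicates 1, 2 and 3. The lowest ICI library was thus above the highest isotype library, but with 3 against 3 libraries the exact two-sided permutation test gave p = 0.1, the smallest it allows. Gene by gene, 5 of the 10 members were called higher in libraries labelled ICI and 1 lower, and 4 were not called (edgeR quasi-likelihood test, Benjamini-Hochberg adjusted p under 0.05 over 14575 genes). Of all genes tested, 34.7% were called higher, 33.7% lower and 68.4% in either direction, so calls in themselves were common. The CPM ranges of the groups did not overlap for 6 members with ICI higher and 1 with isotype higher, against 45.3% and 28.2% of all genes tested, or 73.5% in either direction. Tested against a fold of 1.5 (edgeR's glmTreat), the same 5 members were higher, where 21.1% of all genes were. The members' median log2 fold change, ICI against isotype, was 2.61, against 0.03 over all genes tested. In a bulk library, fewer cells of a type and less RNA per cell cannot be told apart.

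**Figure D1:**
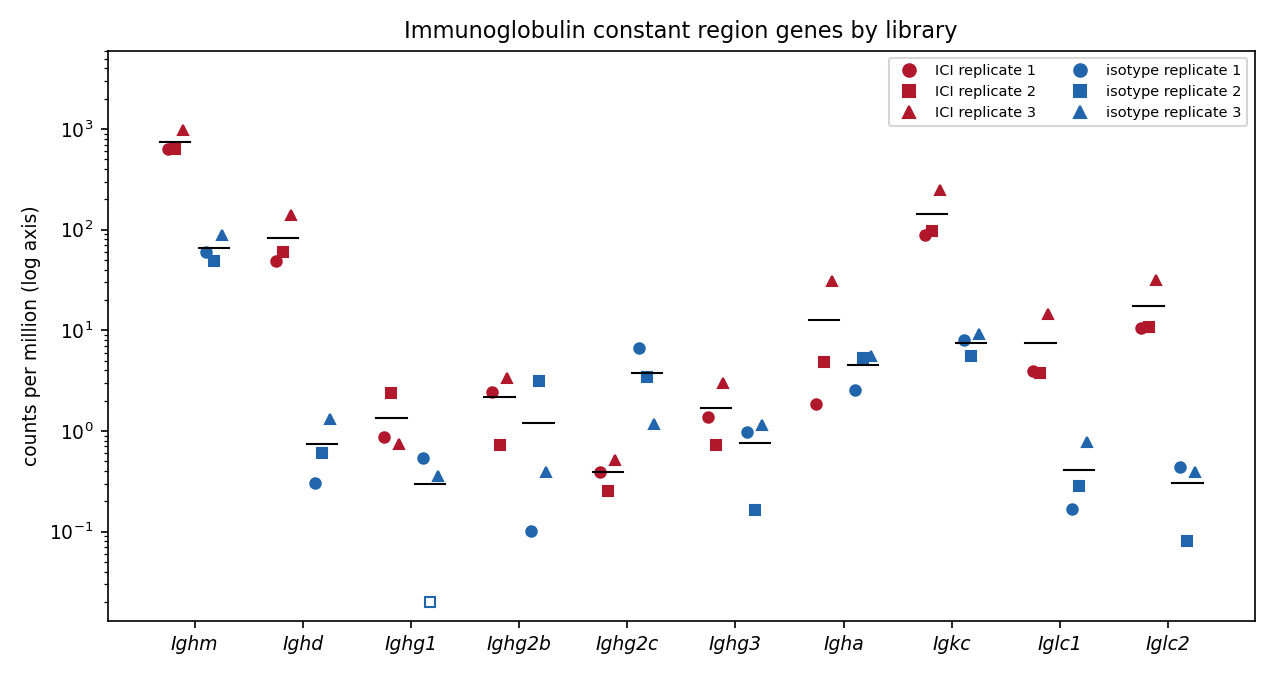
CPM of each constant region gene in the 6 libraries, on a log axis; red marks are libraries labelled ICI, blue marks those labelled isotype, marker shapes the replicates and black lines the group means. The open square at the bottom stands for 0 counts of Ighg1 in isotype replicate 2. Ighm was the most abundant member in counts in both groups, and Ighg2c was the member with higher values in all isotype libraries.

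The unswitched heavy chains carried most of the difference. Ighm (ENSMUSG00000076617), the IgM heavy chain, was at 637, 630 and 972 CPM in ICI replicates 1, 2 and 3 and at 60.6, 48.6 and 87.7 CPM in isotype replicates 1, 2 and 3. Replicate 3 was the highest of its group on both sides, and the groups did not overlap. The rise was 9.86-fold (log2 fold change 3.30, standard error 0.26, edgeR adjusted p = 3.97e-05). Ighd (ENSMUSG00000104213), the IgD heavy chain of mature B cells that have not switched, was at 49.4, 60.4 and 140 CPM in libraries labelled ICI. In libraries labelled isotype it was at 0.305, 0.608 and 1.30 CPM, from 9, 15 and 40 counts. Its rise of 95.1-fold (log2 fold change 6.57, standard error 0.70, edgeR adjusted p = 0.000759) was 155-fold without isotype replicate 3, which held 40 of the 64 isotype counts. Without ICI replicate 3, the highest library, the log2 fold change of Ighd was 6.02, and without replicate 3 of both groups it was 6.73.

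Ighd and Ighm, which a resting B cell makes from 1 primary transcript, did not move in proportion. There were 7.75, 9.59 and 14.4 Ighd counts per 100 Ighm counts in ICI replicates 1, 2 and 3. In isotype replicates 1, 2 and 3 there were 0.503, 1.25 and 1.48. The means were 10.6 ± 3.42 and 1.08 ± 0.513 (SD, n = 3 each, exact two-sided permutation p = 0.1). All 3 ICI libraries lay above all 3 isotype libraries. This and the other ratios below belong to a family of 34, in which each p of 0.1 became 0.121 after Benjamini-Hochberg adjustment.

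Light chains rose as well, kappa and lambda alike in direction. Igkc (ENSMUSG00000076609), the single kappa constant gene, was at 87.8, 97.2 and 248 CPM in libraries labelled ICI and at 7.99, 5.56 and 9.11 CPM in those labelled isotype. ICI replicate 3 stood well above the other libraries of its group. The rise was 16.4-fold (log2 fold change 4.03, standard error 0.53, edgeR adjusted p = 0.00175) and 10.8-fold without ICI replicate 3. Iglc2 (ENSMUSG00000076937), a lambda constant gene, was at 10.6, 10.8 and 31.5 CPM against 0.44, 0.0811 and 0.39 CPM, the latter from 13, 2 and 12 counts. This was a 47.4-fold rise (log2 fold change 5.57, standard error 0.71, edgeR adjusted p = 0.00074), and 29.8-fold without ICI replicate 3. Iglc1 (ENSMUSG00000105906) was at 3.90, 3.80 and 14.5 CPM against 0.169, 0.284 and 0.781 CPM, a rise of 15.0-fold (log2 fold change 3.91, standard error 0.79, edgeR adjusted p = 0.005). It was 8.13-fold without ICI replicate 3 and 27.2-fold without isotype replicate 3. Without replicate 3 of both groups, the log2 fold changes were 3.56 (Igkc), 5.06 (Iglc2) and 3.88 (Iglc1). Iglc3, the near copy of Iglc2 and not itself a member, rose 24.5-fold (edgeR adjusted p = 2.99e-05).

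The lambda genes gave 14.2%, 13.0% and 15.6% of light chain counts (Igkc, Iglc1 and Iglc2) in ICI replicates 1, 2 and 3 and 7.09%, 6.16% and 11.4% in isotype replicates 1, 2 and 3. The groups did not overlap (14.3% ± 1.31 and 8.21% ± 2.79, SD, n = 3 each, exact permutation p = 0.1). The isotype shares rest on 18, 9 and 36 lambda counts.

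Each switched heavy chain gene had far fewer counts than Ighm in all libraries, and none was called higher in libraries labelled ICI. Ighg2c (ENSMUSG00000076612), an IgG2 heavy chain, was the member that fell in libraries labelled ICI. It had 9, 6 and 11 counts in ICI replicates 1, 2 and 3 (0.395, 0.253 and 0.511 CPM) and 198, 85 and 36 counts in isotype replicates 1, 2 and 3 (6.70, 3.45 and 1.17 CPM). The groups did not overlap, yet the isotype libraries differed widely among themselves. The fall was 11.3-fold (log2 fold change -3.49, standard error 0.70, edgeR adjusted p = 0.00306). It was 6.90-fold without isotype replicate 1 and 17.8-fold without replicate 3 of both groups, and limma-voom left it just short of the threshold (adjusted p = 0.0511; range over 15 alternatives 1.56e-08 to 0.0511). From pooled counts, 26 against 319, the ratio towards isotype was 9.83, with an exact 95% interval of 6.58 to 15.3 that covers counting error only.

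The other IgG genes were not called. Ighg1 (ENSMUSG00000076614) had 20, 57 and 16 counts in ICI replicates 1, 2 and 3 and 16, 0 and 11 in isotype replicates 1, 2 and 3. The 0 allows up to 0.122 CPM in isotype replicate 2. In CPM the groups did not overlap, and the log2 fold change was 1.91 (standard error 0.82, edgeR adjusted p = 0.0687). DESeq2 (adjusted p = 0.0261), no filter (0.000743) and library totals alone (0.0473) put it past the threshold, and without ICI replicate 2 the log2 fold change was 1.18 (range of adjusted p over 15 alternatives 0.000743 to 0.247). Ighg2b (ENSMUSG00000076613) had 56, 17 and 72 counts against 3, 77 and 12, and in CPM the highest libraries were ICI replicate 3 (3.34) and isotype replicate 2 (3.12). Its log2 fold change of 0.67 (standard error 1.18, edgeR adjusted p = 0.641) became 2.90 without isotype replicate 2, and was then called (adjusted p = 0.017; range over 16 alternatives 0.017 to 0.949). Ighg3 (ENSMUSG00000076615) had 31, 17 and 64 counts against 29, 4 and 35, with a log2 fold change of 0.90 (standard error 0.67, edgeR adjusted p = 0.267), or 0.25 without ICI replicate 3.

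Summed over the 4 IgG genes, the level was 5.09, 4.09 and 7.57 CPM in ICI replicates 1, 2 and 3 and 8.33, 6.73 and 3.06 CPM in isotype replicates 1, 2 and 3 (5.58 ± 1.79 and 6.04 ± 2.702 CPM, SD, n = 3 each, exact permutation p = 0.9), and the groups overlapped. Without replicate 3 of both groups the means were 4.59 CPM (ICI) and 7.53 CPM (isotype), and the groups no longer overlapped. Which gene made up the IgG sum differed. Ighg2c gave 7.76%, 6.19% and 6.75% of the IgG counts in ICI replicates 1, 2 and 3 and 80.5%, 51.2% and 38.3% in isotype replicates 1, 2 and 3 (exact permutation p = 0.1).

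Igha (ENSMUSG00000095079), the IgA heavy chain, was the most abundant switched member in counts in replicates 2 and 3 of both groups. It had 42, 115 and 666 counts in ICI replicates 1, 2 and 3 and 76, 131 and 172 in isotype replicates 1, 2 and 3. ICI replicate 3 stood alone at 30.9 CPM, where the other 5 libraries lay between 1.84 and 5.60 CPM. The log2 fold change was 1.25 (standard error 1.13, edgeR adjusted p = 0.377). Without ICI replicate 3 it was -0.59, and it was not called in either direction. Jchain, the joining chain of secreted IgA and IgM polymers, showed the same library apart, with 421 counts in ICI replicate 3 against 37 to 65 in the others (log2 fold change 2.04, edgeR adjusted p = 0.143). Ighe, the IgE heavy chain, had 1 count in all 6 libraries together.

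Heavy chain composition separated the groups. The switched genes gave 1.00%, 1.28% and 3.35% of heavy chain constant counts in ICI replicates 1, 2 and 3. In isotype replicates 1, 2 and 3 they gave 15.2%, 19.7% and 8.86% (means 1.88% ± 1.28 and 14.6% ± 5.42, SD, n = 3 each, exact permutation p = 0.1). IgA alone gave 0.266%, 0.694% and 2.69% against 3.58%, 8.67% and 5.73%, and IgG 0.734%, 0.585% and 0.658% against 11.6%, 11.0% and 3.13%. Neither set of values overlapped. Ighd moved the other way, from 9.30% ± 2.58 in libraries labelled ICI to 0.916% ± 0.459 in those labelled isotype. Ighm remained the main heavy chain gene throughout, at 84.5% to 91.9% of heavy chain counts with ICI and 79.4% to 89.8% with isotype. These are shares of counts, which favour genes with longer exons.

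**Figure D2:**
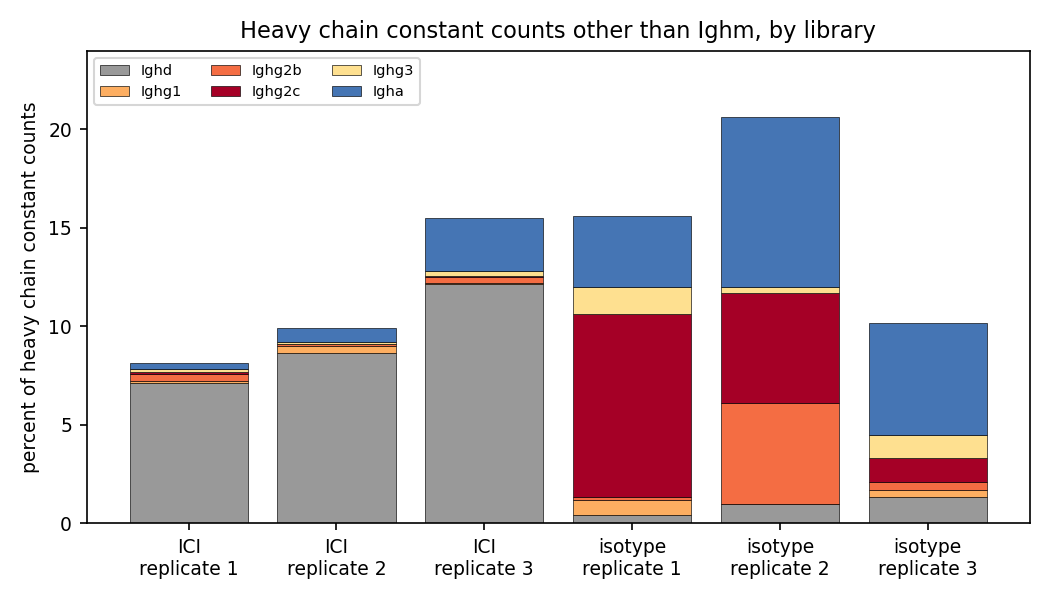
Share of heavy chain constant counts, in percent, that came from each gene other than Ighm, stacked for each library. Ighd made up most of the bar in the 3 libraries labelled ICI, while IgG and IgA genes made up most of it in the 3 labelled isotype.

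Levels of different genes were compared per kilobase of annotated exon. In libraries labelled ICI, Ighm was at 396 ± 104 CPM per kilobase, Igkc at 271 ± 169, Ighd at 43.8 ± 26.0 and Iglc2 at 28.8 ± 19.6 (SD, n = 3 each). The ranges over libraries overlapped for Ighm and Igkc and for Ighd and Iglc2, although within each of the 3 libraries Ighm was above Igkc and Ighd above Iglc2. In libraries labelled isotype, Ighm at 34.8 ± 10.6 CPM per kilobase and Igkc at 14.2 ± 3.41 were followed by Ighg2c at 2.85 ± 2.10 and Igha at 1.68 ± 0.626, which overlapped. The order of Ighg2c and Igha there rests on exon length, 1326 and 2668 bases. Without that scaling, the isotype mean of Igha (4.49 CPM) was above that of Ighg2c (3.77 CPM). By group mean per kilobase Ighg2c was the lowest of the 10 members with ICI and the third with isotype, but the order varied by library. In ICI replicate 3 Ighg1 was lower (0.287 against 0.385 CPM per kilobase), and in isotype replicate 3 Ighg2c (0.883) was below Igha (2.10) and Iglc1 (1.72). Light chains per heavy chain, on this scale, were 0.665 ± 0.213 with ICI and 0.382 ± 0.0313 with isotype (exact permutation p = 0.1). The difference of 0.283 fell to 0.161 without ICI replicate 3.

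Most partner genes of the B cell receptor were higher with ICI. Of 17 genes of receptor signalling, 12 were called higher, 2 lower and 3 not, with a median log2 fold change of 2.21, where 34.7% of all genes were higher and 33.7% lower. Cd79a, which encodes a signalling chain of the receptor, was at 70.0, 87.2 and 244 CPM in ICI replicates 1, 2 and 3 and at 0.508, 1.18 and 1.76 CPM in isotype replicates 1, 2 and 3. It rose 99.5-fold (log2 fold change 6.64, standard error 0.81, edgeR adjusted p = 0.00155), and 60.5-fold without ICI replicate 3. Its partner Cd79b rose 20.1-fold (edgeR adjusted p = 0.00111). Ms4a1, which encodes the B cell surface protein CD20, rose 80.4-fold (edgeR adjusted p = 0.00261). Leaving out ICI replicate 3 gave 47.8-fold for Ms4a1, and leaving out isotype replicate 3 gave 145-fold. Without replicate 3 of both groups the log2 fold changes were 6.38 (Cd79a) and 6.435 (Ms4a1), against 6.64 and 6.33 with all libraries. All 14 genes of the B cell marker list were called higher, with a median log2 fold change of 5.88, against 0.03 over all genes tested. The summed CPM of this list was 343 to 1109 with ICI and 13.7 to 27.4 with isotype, and ICI replicate 3 was again the highest.

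**Figure D3:**
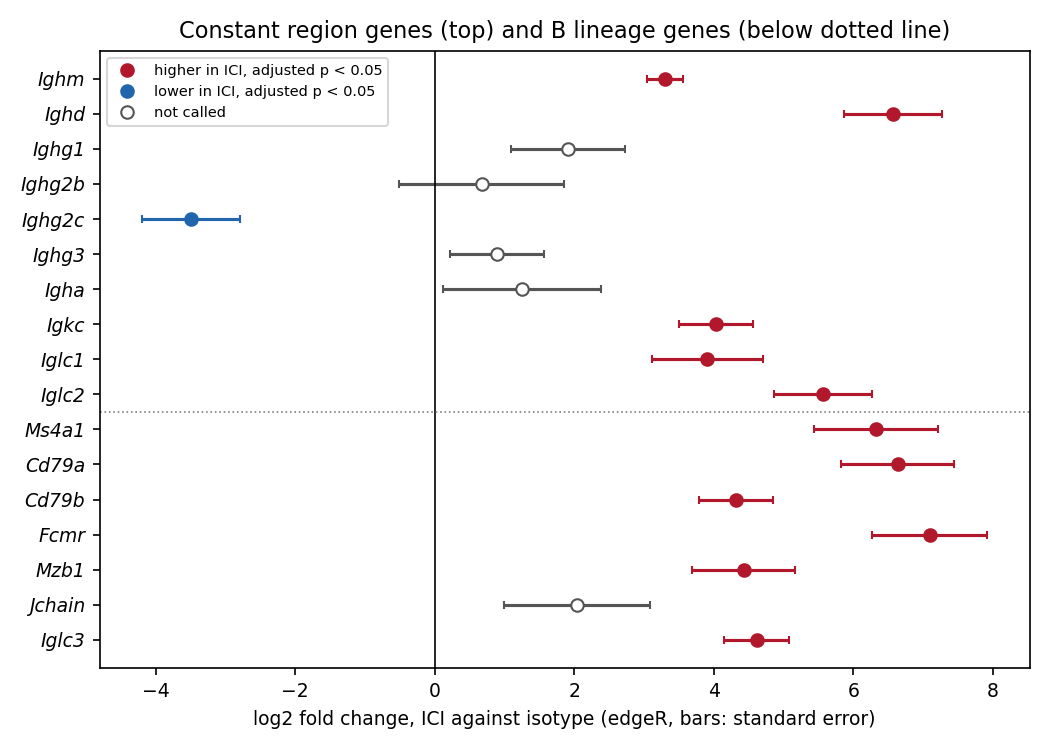
Log2 fold change, ICI against isotype, of the 10 constant region genes and of 7 B lineage genes, with the standard error of the edgeR fit as bars; filled marks passed an adjusted p of 0.05. Ighd and Iglc2 lie near Ms4a1 and Cd79a, Ighm lies lower at 3.30, and Ighg2c lies on the other side of 0.

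Set against B cell transcripts of the same library, constant region counts were higher with isotype. The summed counts of Ms4a1, Cd79a and Cd79b were 3266, 4359 and 10532 in ICI replicates 1, 2 and 3 and 101, 100 and 218 in isotype replicates 1, 2 and 3. For each such count there were 5.55, 4.41 and 2.95 constant region counts with ICI and 23.5, 16.6 and 15.2 with isotype (4.31 ± 1.30 and 18.4 ± 4.46, SD, n = 3 each, exact permutation p = 0.1). Over all 14 B cell markers the ratios were 1.83 ± 0.509 and 4.77 ± 1.00, a smaller gap. With Cd79b left out of the 3 they were 5.95 ± 2.02 and 54.9 ± 26.4. Cd79b stood out in the denominator, at 0.555 ± 0.063 counts per Cd79a count with ICI and 3.11 ± 1.53 with isotype. The size of the gap therefore depends on the marker genes chosen, while its direction was the same in all 3 versions. These versions share the numerator and the markers Ms4a1 and Cd79a, so they are not independent.

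The members split in this ratio. Ighm gave 4.45, 3.43 and 1.99 counts per count of those 3 markers in ICI replicates 1, 2 and 3 and 17.7, 12.0 and 12.4 in isotype replicates 1, 2 and 3. Igkc gave 0.549 ± 0.0558 with ICI and 1.66 ± 0.584 with isotype. Igha gave 0.0342 ± 0.0261 and 0.95 ± 0.312, and Ighg2c 0.00173 ± 0.000907 and 0.992 ± 0.906 (0.508 without isotype replicate 1). For these 4 genes, and for Ighg2b, Ighg3 and Iglc1, the groups did not overlap (exact permutation p = 0.1 each), with isotype higher. Ighd was the reverse, at 0.344, 0.329 and 0.286 with ICI against 0.0891, 0.150 and 0.183 with isotype. That order depended on the marker set, since with Cd79b left out the Ighd ratios overlapped (0.378 to 0.492 with ICI and 0.321 to 0.421 with isotype). Iglc1 overlapped over all 14 markers. The lowest isotype values rest on 3 counts for Ighg2b (replicate 1) and 4 for Ighg3 (replicate 2). The isotype mean of Ighg2b fell from 0.285 to 0.0424 without isotype replicate 2, against 0.00929 with ICI. For Iglc2 the groups overlapped (0.0657 ± 0.00788 and 0.0679 ± 0.0555, exact permutation p = 1), as they did for Ighg1 (exact permutation p = 0.4).

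**Figure D4:**
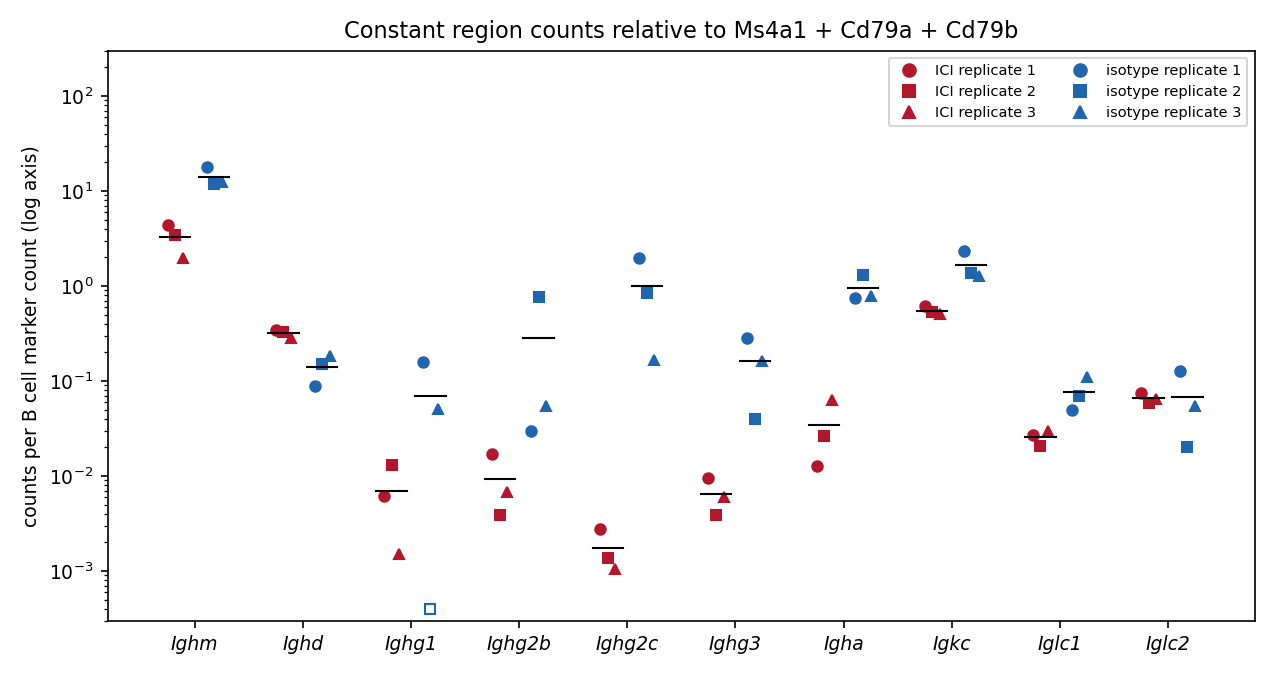
Counts of each constant region gene divided by the summed counts of Ms4a1, Cd79a and Cd79b in the same library, on a log axis; colours, shapes and lines are as in the plot of CPM, and the open square stands for 0 counts. The values are higher in libraries labelled isotype for Ighm, Ighg2b, Ighg2c, Ighg3, Igha, Igkc and Iglc1, lower there for Ighd with this marker set, and overlapping for Ighg1 and Iglc2.

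Variable segments, the other part of each chain, moved in the same direction against the B cell markers. Heavy chain variable segments gave 0.172 ± 0.0108 counts per count of the 3 B cell markers with ICI and 0.624 ± 0.233 with isotype (exact permutation p = 0.1). Ighm counts per count of heavy chain variable segments were 27.6, 19.9 and 10.9 in ICI replicates 1, 2 and 3 and 21.3, 17.9 and 33.3 in isotype replicates 1, 2 and 3, which overlapped (exact permutation p = 0.5), and the order of the means turned without replicate 3 of both groups (23.8 and 19.6). Kappa variable segments gave 0.306 ± 0.0102 counts per count of those markers with ICI and 0.725 ± 0.194 with isotype (exact permutation p = 0.1). Igkc counts per kappa variable count were 1.80 ± 0.192 with ICI and 2.27 ± 0.220 with isotype, without overlap (exact permutation p = 0.1).

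Genes of later B cell stages were called about as often as all genes. Of 11 tested genes of immunoglobulin assembly and plasma cells, 4 were called higher, 3 lower and 4 not, with a median log2 fold change of 0.26, where 34.7% of all genes were higher and 33.7% lower. Mzb1, a chaperone for IgM assembly, was at 2.63, 3.84 and 11.5 CPM against 0.102, 0.203 and 0.39 CPM, a 21.6-fold rise (edgeR adjusted p = 0.00139). It was 12.1-fold without ICI replicate 3 and 32.7-fold without isotype replicate 3. Without replicate 3 of both groups the log2 fold change of Mzb1 was 4.20, against 4.43 with all libraries. Tnfrsf17, which encodes the plasma cell receptor BCMA, had 81, 66 and 66 counts with ICI and 0 in all libraries labelled isotype, at least 88.6-fold higher against a floor of 3 counts over the group. Irf4, a transcription factor of B cells, plasma cells and some myeloid cells, rose 17.2-fold (edgeR adjusted p = 9.61e-05). Prdm1, which encodes the plasma cell factor BLIMP-1 and is also active in macrophages, fell 2.18-fold, and Txndc5, a folding enzyme of the endoplasmic reticulum, 1.74-fold. Sdc1, the plasma cell antigen CD138, was at 7.61 ± 1.41 and 7.95 ± 0.461 CPM (SD, n = 3 each) and was not called (edgeR adjusted p = 0.165).

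Of the 8 B cell transcription factors, 7 were called higher and 1, Tcf3, was not, where 34.7% of all genes were called higher. The median log2 fold change of the 8 was 4.31. Pax5, the factor of B cell identity, had 79, 94 and 220 counts against 1, 4 and 2, a 57.8-fold rise (edgeR adjusted p = 6.24e-05), 37.7-fold without ICI replicate 3 and 93.3-fold without isotype replicate 2. Bach2, a repressor of plasma cell fate, rose 13.8-fold, Ikzf3 20.8-fold (13.8-fold without replicate 3 of both groups) and Pou2f2 2.23-fold. Of the 8 genes of class switching and the germinal centre, 5 could be tested. Of these, 2 (Gcsam and Mybl1) were called higher and 2 (S1pr2 and Ung) lower, beside 34.7% and 33.7% of all genes. The call of Mybl1 (edgeR adjusted p = 0.0434) was lost under 7 of 15 alternatives, among them DESeq2 (adjusted p = 0.0676) and leaving out ICI replicate 2 (0.221), within a range of 0.0222 to 0.221. Ung, a DNA repair enzyme that also acts in class switching, fell 1.45-fold (edgeR adjusted p = 0.0449). Its call was lost under 12 of 16 alternatives, among them DESeq2 (adjusted p = 0.081), within a range of 0.0277 to 0.583.

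Receptors that bind immunoglobulin were tested in 10 genes, of which 5 were called higher and 3 lower, beside 34.7% and 33.7% of all genes. Fcer2a, the low-affinity IgE receptor of B cells, rose 233-fold (edgeR adjusted p = 9.74e-05). Fcgrt, the neonatal Fc receptor that recycles IgG, was at 650 ± 81.4 CPM with ICI and 75.4 ± 32.7 CPM with isotype, a 7.53-fold rise (edgeR adjusted p = 0.000403). Fcgr1, the high-affinity IgG receptor of macrophages, fell 2.92-fold, and Fcer1g, the shared signalling chain, 2.05-fold.

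Several marker lists of other cells also differed between the groups, though not every gene of each list did. Of all genes tested, 34.7% were called higher and 33.7% lower. All 4 tested erythroid markers of 7 were called higher in libraries labelled ICI, with a summed level of 19.3 to 38.8 CPM against 0.325 to 2.56 CPM. All 7 tested cardiomyocyte markers of 8 were called higher, at 41.1 to 52.02 summed CPM against 5.68 to 14.5 CPM. T cell markers summed to 27.4 to 41.5 CPM against 6.70 to 8.49 CPM, with 4 of 7 tested genes higher and 1, Trac, lower, and Cd3d and Cd3e had at most 17 counts in any library. Most of the ICI sum came from Cd4 (mean 14.3 CPM, against 0.621 with isotype) and Lck (11.9 against 2.99 CPM). Of the 3 tested platelet markers 1, Ppbp, was called higher. The platelet list summed to 5.05 to 11.7 CPM against 0.748 to 1.74 CPM, and most of the ICI sum was Ppbp (mean 6.76 CPM, against 0.0113 with isotype). Gp6 (log2 fold change -1.73) and Itga2b (-0.03) were not called. Of the 8 macrophage markers 3 were called higher and 2 lower, about as often as all genes, with a median log2 fold change of 0.13. The part of these cells in the results above was not tested.

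The genes whose levels over the 6 libraries were most like the mean log2 level of the members were Zfp746, Siglecg, Mast4, Zdhhc17 and Sept1. Their Pearson correlations were 0.9995, 0.9995, 0.9989, 0.9982 and 0.998. They were the highest among 11359 tested genes whose mean reached 1 CPM. The members, other immunoglobulin genes and segments, and predicted genes had been left out of that set. The 6 points fall into the study's groups, so these values mostly describe the step between them. They do not measure its size. The log2 fold change was only 0.57 for Zfp746 and 0.61 for Zdhhc17, against 2.79 (Siglecg), 2.34 (Mast4) and 2.38 (Sept1). Siglecg, an inhibitory lectin of B cells, was at 22.7, 24.6 and 64.0 CPM in ICI replicates 1, 2 and 3 and at 4.197, 3.77 and 5.82 CPM in isotype replicates 1, 2 and 3. It was highest in replicate 3 of each group, as 6 of the 10 members were (Ighm, Ighd, Ighg3, Igha, Igkc and Iglc1).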

How the data were processed

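RNA was measured in 6 libraries, 3 labelled ICI and 3 labelled isotype, made with a non-directional SMART-seq V4 kit, per the labels' protocols. The deposited values are raw counts per gene; STAR 2.7.10a and Salmon 1.10.1, with build GRCm39, are listed in the submitters' processing notes. The annotation release was not given in the sources used here. Counts were tested with edgeR 4.0.16 in R 4.3.3 (TMM, quasi-likelihood F test, minimum count 10, Benjamini-Hochberg over 14575 genes). DESeq2 1.42.0 and limma-voom 3.58.1 were alternatives. Ratios were compared by exact two-sided permutation over libraries, whose smallest p is 0.1. Named genes were the 10 members, at most 4 genes per list by smallest p, 11 fixed B lineage and check genes, and the 5 genes most like the members in level; Tcf3, Trac, Cd3d, Cd3e and Fcmr fell outside (Fcmr is only plotted) and were chosen after their values were seen. Members and lists were chosen with earlier results of these data known. Ratios to Ms4a1, Cd79a and Cd79b were chosen after seeing the data, in place of a planned marker set that is not reported here. Same-numbered libraries correlated at 0.034, 0.062 and 0.128 in their deviations, so numbers were not treated as pairs. On simulated data, 86% of 2-fold and 94% of 4-fold changes were recovered, with 4 false calls. The simulation changed 200 of 14575 genes and gave every gene the same dispersion. The members had standard errors of 0.26 (Ighm) to 1.18 (Ighg2b), so these rates may not hold for them. Intervals and floors (3 counts) cover counting error only, and reads carried no molecular identifiers.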

Additional observations from a re-analysis of the deposited data

How the results depend on the processing

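Of 157 values of the members under alternatives, 149 kept direction and side of the threshold, 1 lost the call, 4 gained it and 3 reversed. Reversals were Ighg2b at -0.19 without replicate 3 of both groups, and Igha at -0.59 without ICI replicate 3 and -0.43 without replicate 3 of both groups; Itga2b, a platelet marker, reversed to 0.15 with upper-quartile factors, 0.17 with library totals alone, 0.17 without ICI replicate 1 and 0.10 without ICI replicate 2 (log2 fold changes). Over single libraries left out, the highest values were 2.90 for Ighg2b and 1.76 for Igha, and the lowest for Itga2b was -0.41. The number of members called lower was 0 under limma-voom and 0 under a strict filter, which removed Ighg2c from the genes tested; leaving out single libraries gave 5 to 6 higher and 1 lower. Against a 1.5-fold threshold, 3079 genes were called higher, 2384 lower and 5 listed genes lower. Upper-quartile factors and library totals alone gave all genes a median log2 change of 0.21 and 0.23, against 0.03, with 6108 higher and 3808 lower, and 6212 and 3700, against 5056 and 4913. With the replicate number as a block, 5 members were higher and 1 lower, and 4962 and 4846 of all genes. The block lowered the edgeR adjusted p of some members (Ighd from 0.000759 to 1.97e-07) and raised that of others (Ighg1 from 0.0687 to 0.16). Whether the numbers pair the libraries is not known. Depth limits Ighg1, Ighg2b, Ighg2c and Ighg3, and isotype Ighd, Iglc1 and Iglc2, which rest on few counts in at least some libraries.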
